A study of Mus musculus with 34 samples.

Results

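Cortistatin (Cort) and 9 neuropeptides and markers of inhibitory neurons of the cortex (Sst, Npy, Vip, Pvalb, Cck, Gad1, Gad2, Slc32a1 and Lhx6) were followed across 34 mouse cortex libraries. They were taken by gene symbol, 10 of the 55385 genes listed, and all 10 had enough counts to be tested. The set was chosen by a measured value, the higher Cort of sham-treated Dp16 than of sham-treated wild-type mice, so that contrast is given as a description without a test. Cort was 1.79-fold higher in duplication carriers over the 3 contrasts that did not enter the choice, and Vip was 1.47-fold higher. Slc32a1, the transporter that loads GABA into vesicles, was 1.18-fold lower, and edgeR called none of the other 7 genes in that average. In fits that left out 1 library the call of Cort was kept in all 34, that of Vip in 19 and that of Slc32a1 in 6.

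Poly-A RNA was read from the cortex of mice aged 6 months, 1 library per mouse. Wild-type mice were C57BL/6J. In Dp16 mice a stretch of chromosome 16 that corresponds to much of human chromosome 21 is present in an extra copy, and 5xFAD mice carry mutant human transgenes that are expressed in neurons from Thy1 sequences and lead to amyloid plaques. 5xFAD-Dp16 mice carry both. Each genotype was given tofacitinib, a Janus kinase inhibitor, by gavage at 15 mg/kg every day for 1 month, or 0.5% methylcellulose as sham. The numbers of mice, sham then tofacitinib, were 5 and 5 for wild-type, 3 and 5 for Dp16, 4 and 5 for 5xFAD, and 3 and 4 for 5xFAD-Dp16, and every group held both sexes. The libraries held between 16029841 and 21388650 counted reads. Levels are CPM, counts scaled to a common library size and composition, and differences are log2 ratios. Since these are bulk tissue libraries, a change in the number of cells of a type and a change in RNA per cell cannot be told apart.

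Most inhibitory neurons of the cortex fall into classes named after what they make: parvalbumin (Pvalb) cells, somatostatin (Sst) cells and vasoactive intestinal peptide (Vip) cells. Gad1 and Gad2 encode the enzymes that make GABA, and Slc32a1 packs it into vesicles. Cortistatin is a close relative of somatostatin that binds the same receptors and is found in subsets of Pvalb and Sst cells. Lhx6 is a transcription factor of Pvalb and Sst cells, Npy marks several inhibitory classes, and Cck is also made by excitatory neurons of the cortex. The promoters of several neuropeptide genes, that of Sst above all, hold a cyclic AMP response element (CRE), the letters bound by the activity-regulated factor CREB.

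The promoters of the 3 neuropeptide genes that the results turn on, and that of Slc32a1, are shown because Cort and Vip were higher in carriers of the duplication while Slc32a1 was lower. Each is the 250 bases before the RefSeq start site on GRCm38.p6, 5′ to 3′, with a match to TGACGTCA (the full CRE) or otherwise to TGACG (the shorter CRE core, CGTCA on the other strand) in capitals. GENCODE places the upstream end of Sst at 23890958, inside the window shown.
Cort, chr4:149126764-149127013, minus strand: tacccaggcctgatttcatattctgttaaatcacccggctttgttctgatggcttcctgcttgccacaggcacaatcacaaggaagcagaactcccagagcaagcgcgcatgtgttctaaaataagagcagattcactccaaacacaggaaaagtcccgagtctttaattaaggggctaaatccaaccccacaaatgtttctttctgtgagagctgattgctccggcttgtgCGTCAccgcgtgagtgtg
Sst, chr16:23890845-23891094, minus strand: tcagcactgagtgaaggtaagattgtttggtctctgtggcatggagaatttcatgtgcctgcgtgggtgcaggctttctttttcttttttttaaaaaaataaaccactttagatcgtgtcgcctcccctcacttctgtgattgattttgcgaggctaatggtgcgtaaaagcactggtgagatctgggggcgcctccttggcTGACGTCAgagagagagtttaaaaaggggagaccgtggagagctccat
Vip, chr10:5638968-5639217, plus strand: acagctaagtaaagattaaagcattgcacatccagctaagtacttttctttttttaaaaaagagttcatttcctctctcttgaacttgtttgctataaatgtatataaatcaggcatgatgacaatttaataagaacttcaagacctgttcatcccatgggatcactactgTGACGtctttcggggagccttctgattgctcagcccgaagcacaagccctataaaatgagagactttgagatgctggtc
Slc32a1, chr2:158610508-158610757, plus strand: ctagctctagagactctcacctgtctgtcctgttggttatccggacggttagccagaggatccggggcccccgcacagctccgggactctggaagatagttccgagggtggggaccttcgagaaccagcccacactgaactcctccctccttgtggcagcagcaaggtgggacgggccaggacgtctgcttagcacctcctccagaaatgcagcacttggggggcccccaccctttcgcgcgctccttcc

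Sst held the full CRE, its last base 41 bases before the start site. Cort held no full CRE and 1 CRE core, CGTCA, 14 bases before its start. Vip held 1 core, TGACG, 75 bases before its start, and also the TATA box letters TATAAA 152, 142 and 25 bases before it. Slc32a1 held none of the motifs searched. Both strands were searched, and each full CRE also counts as a core. Over all 10 genes, 5 had a core in the window (Cort, Sst, Vip, Cck and Gad2), against 17.8% of 32851 RefSeq windows of the same length. A full CRE was found in 1 of the 10 and in 1.55% of windows, TATAAA in 2 (Vip and Gad1) and in 12.4%, and the AP-1 letters TGANTCA in 1 (Lhx6) and in 6.75%. These matches are letters in a window and carry no measurement of binding.

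All 10 genes lay outside the duplicated segment, which was taken as chromosome 16 from 75540514 to 97962622 (GRCm38). Cort (ENSMUSG00000028971.4) lies on chromosome 4 from 149125034 to 149126763 on the minus strand. Sst (ENSMUSG00000004366.4) is on chromosome 16 itself, from 23889573 to 23890958, far from the segment. Vip (ENSMUSG00000019772.5) lies on chromosome 10 from 5639218 to 5647617, and Slc32a1 (ENSMUSG00000037771.11) on chromosome 2 from 158610767 to 158615748. The annotation places the antisense gene Gm14205 across Slc32a1 and the antisense gene Gad1os across Gad1. The strand setting of the counting is not given in the sources used here, so reads of these overlapping genes cannot be told apart. Gad1os was listed with at most 10 reads in any library and Gm14205 with at most 21, against at least 1583 for Slc32a1 and 3057 for Gad1.

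Genotype labels were checked first. The median ratio of the 106 tested genes of the segment to the wild-type sham mean lay between 1.39 and 1.52 in the 15 carriers and between 0.912 and 1.05 in the other 19 mice. In the 16 mice with 5xFAD the reads counted to Thy1 came to 1430 to 2570 CPM, against 824 to 952 CPM in the 18 without, Thy1 being the source of the transgene promoter. In a principal component analysis, with 10.8% and 7.92% of the variance on the leading axes, 2 libraries lay away from the rest, wild-type sham 2 and 5xFAD tofacitinib 2. In 5xFAD tofacitinib 2 the summed excitatory markers were 2876 CPM, against 5264 to 8390 in the 32 libraries other than these, and the summed thalamic markers were 418 CPM, against 76.4 to 130.0. The same library had 205 CPM of hypothalamic and amygdala markers, against 9.13 to 50.3. Wild-type sham 2 lay within the range of the others for every marker sum but the hippocampal, at 329 CPM against 339 to 637. Values without 5xFAD tofacitinib 2 are given beside the genes of the set and the list calls that it moved.

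Per kilobase of gene length, the 10 genes spanned almost 2 orders of magnitude. Sst was the most abundant, at 457 ± 61.7 RPKM (reads scaled for gene length and library size, SD over 34 mice), followed by Cck at 313 ± 36.1, Npy at 195 ± 31.5 and Pvalb at 105 ± 23.5. The GABA genes came next, with Gad1 at 52.8 ± 5.44 RPKM and Slc32a1 at 41.1 ± 5.43. Vip had 25.7 ± 6.89 RPKM and Gad2 23.8 ± 3.44. Cort was ninth, at 15.9 ± 6.08 RPKM, above Lhx6 at 6.48 ± 1.03. Between most neighbours the order held in every mouse, but Vip and Gad2 were not separated, with Vip above Gad2 in 20 of 34 mice. Gad2 was above Cort in 29 mice, Slc32a1 above Vip in 31 and Npy above Pvalb in 33. Cort rested on 82 to 365 reads per library, the fewest of the 10 genes.

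In sham mice, the contrast that chose Cort, the wild-type mice had 7.78, 7.25, 7.45, 6.36 and 12.4 CPM of Cort and the Dp16 mice 12.4, 17.3 and 21.1. Wild-type sham 5 reached the level of the lowest Dp16 mouse, so the groups overlapped. The log2 difference was 1.07 (SE 0.221), the largest of the 10 genes in that contrast. Sst did not overlap there, at 282 to 350 CPM in wild-type and 377 to 424 in Dp16. That was 1 of the 10 genes higher and 0 lower without overlap, where 2.77% and 1.82% of all genes were. The other 8 genes overlapped, with log2 differences from -0.38 for Pvalb to 0.30 for Vip.

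Under tofacitinib, in mice that did not enter the choice, Cort was about as much higher in Dp16. The 5 wild-type mice had 8.12, 7.59, 8.17, 7.85 and 7.22 CPM and the 5 Dp16 mice 17.3, 16.9, 15.2, 17.0 and 11.0. Every Dp16 mouse was above every wild-type mouse. The log2 difference was 1.03 (SE 0.198), a 2.05-fold change, and passed the test (edgeR quasi-likelihood F-test, Benjamini-Hochberg adjusted p = 0.00687). Cort was the only one of the 10 genes called, at an adjusted p under 0.05 over the 17632 genes tested, where 0.255% of all genes were called. Unadjusted, 5 of the 10 had a p under 0.05, against 8.35% of all genes. With a trend on gene length removed from each library the difference was 0.86 and its adjusted p 0.135, which ends the call.

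**Figure D1:**
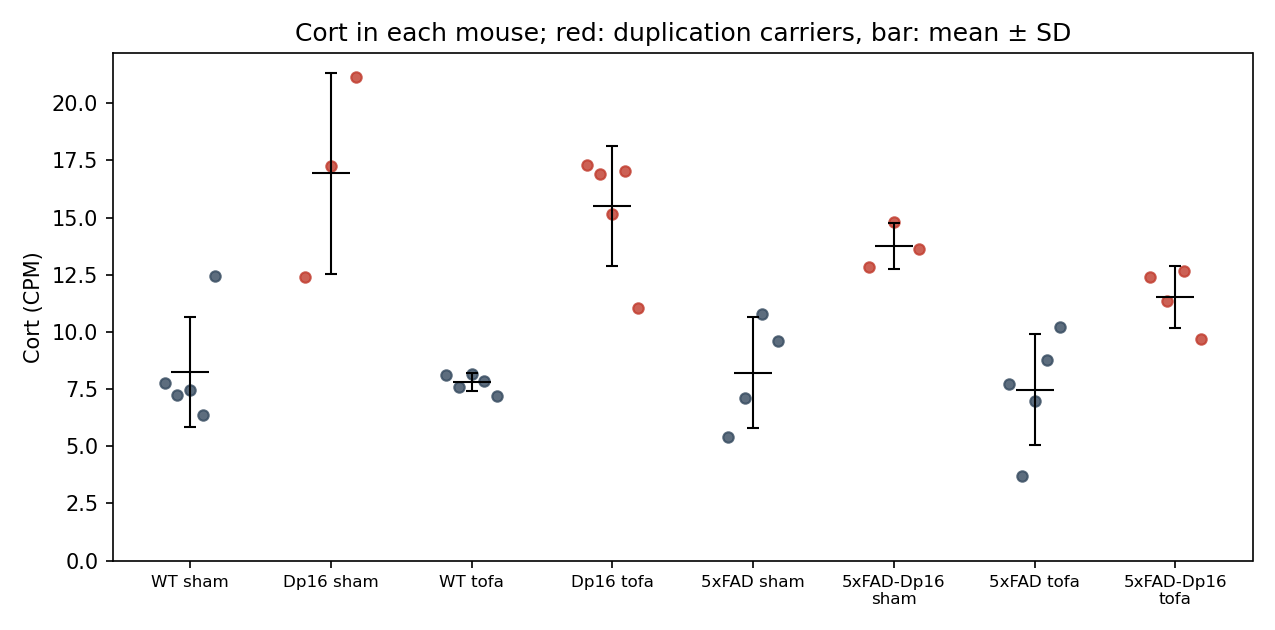
Cort in each of the 34 mice, in CPM on a linear axis, by genotype and treatment (WT, wild-type; tofa, tofacitinib), with duplication carriers in red and bars for the mean and SD of each group. The 5 Dp16 tofacitinib mice lie between 11.0 and 17.3 CPM, above all 5 wild-type tofacitinib mice, and wild-type sham 5 lies apart from its group at 12.4 CPM.

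On the 5xFAD background neither contrast passed by itself. Among sham mice, 5xFAD had 5.39, 7.09, 10.8 and 9.59 CPM and 5xFAD-Dp16 had 12.8, 14.8 and 13.6. These groups did not overlap. The log2 difference was 0.83 (SE 0.239) and did not pass the edgeR test (adjusted p = 0.453). There 0 of the 10 genes were called by edgeR, DESeq2 or limma-voom, and 0.102% of all genes by edgeR. At an unadjusted p under 0.05 edgeR gave 4 of the 10 and 3.74% of all genes.

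Under tofacitinib the 5xFAD mice had 7.71, 3.71, 6.96, 8.76 and 10.2 CPM of Cort and the 5xFAD-Dp16 mice 12.4, 11.4, 12.6 and 9.70. The lowest carrier lay below the highest non-carrier. The log2 difference was 0.67 (SE 0.208), with an edgeR adjusted p of 0.251, and 0 of the 10 genes were called by edgeR, DESeq2 or limma-voom, against 0.238% of all genes by edgeR. At an unadjusted p under 0.05 there were 3 of the 10 and 7.89% of all genes, and without overlap 0 of the 10, against 1.26% higher and 1.57% lower. Without 5xFAD tofacitinib 2, which had the 3.71 CPM, the log2 difference was 0.49.

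Averaged over these 3 contrasts, none of which shares a library with the contrast that chose Cort, the duplication went with a log2 difference of 0.84 (SE 0.127, 95% interval 0.58 to 1.10, edgeR adjusted p = 7.09e-05). All 12 of these carriers were above the mean of the non-carriers of their own background. Without 5xFAD tofacitinib 2 the average was 0.77, and leaving out any other library gave more. Cort was called in each of the 34 fits that left out 1 library. The size of the effect was not shown to depend on the background: the contrast of contrasts was -0.37 (SE 0.285, edgeR adjusted p = 0.772) for 5xFAD and -0.16 (SE 0.314, adjusted p = 0.999) for the drug within 5xFAD mice. The 95% intervals of these differences, -0.95 to 0.21 and -0.80 to 0.48, include 0. In these 2 tests 0 of the 10 genes and 0% of all genes were called by edgeR, the one tool run. At an unadjusted p under 0.05 the first gave 1 of the 10 (Lhx6, 0.45, SE 0.193) and 7.21% of all genes, and the second 0 and 2.13%.

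In that average 3 of the 10 genes were called, 2 higher and 1 lower, where 1.22% of all 17632 genes were called. Among all genes 0.732% were called higher and 0.488% lower. The median log2 difference of the 10 genes was 0.04, beside 0.00 (0.000451) for all genes tested. Of the 10, 6 had an unadjusted p under 0.05, against 11.2% of all genes.

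**Figure D2:**
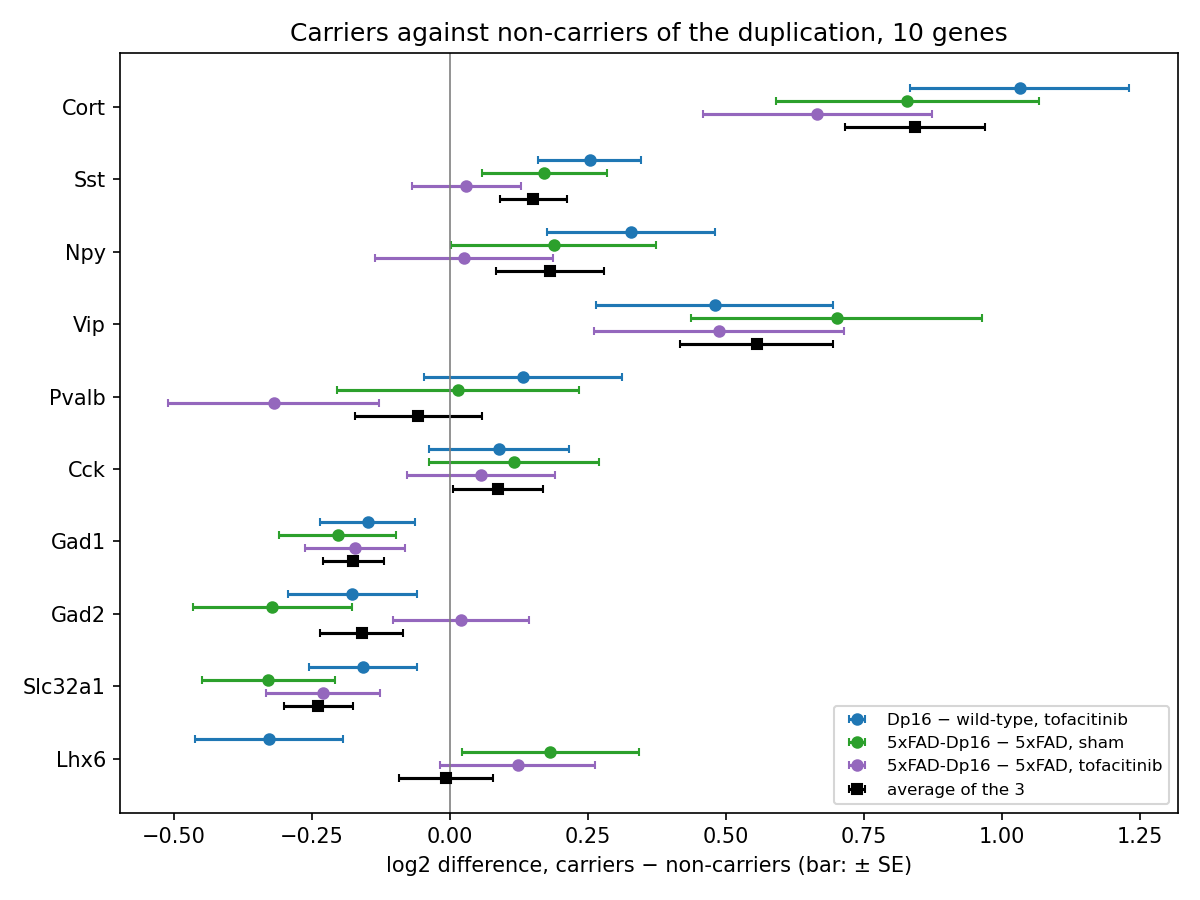
Log2 difference of carriers minus non-carriers for the 10 genes in the 3 contrasts that did not choose Cort (coloured points) and in their average (black squares), with bars for the SE. Cort, Vip, Sst, Npy and Cck lie above 0 in all 3 contrasts, Gad1 and Slc32a1 lie below 0 in all 3, and Pvalb, Gad2 and Lhx6 change sign between them. A fit without 5xFAD tofacitinib 2, not drawn, moved some of these points below 0 in 5xFAD-Dp16 against 5xFAD under tofacitinib. They were Sst (-0.03), Npy (-0.18), Cck (-0.12) and Lhx6 (-0.02).

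Vip, which marks inhibitory neurons that mostly contact other inhibitory neurons, was the only other member called higher. Under tofacitinib it had 43.1, 34.3, 28.8, 30.6 and 33.2 CPM in wild-type mice and 44.1, 44.3, 47.0, 55.0 and 45.9 in Dp16. Among sham mice it had 26.0, 22.5, 32.6 and 24.5 CPM in 5xFAD and 45.0, 46.5 and 35.9 in 5xFAD-Dp16. Neither pair of groups overlapped. The groups overlapped under tofacitinib on the 5xFAD background, at 30.6, 12.9, 40.2, 47.6 and 38.0 CPM without and 59.4, 36.4, 55.7 and 37.1 with the duplication.

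The log2 differences of Vip in these contrasts were 0.48 (SE 0.214), 0.70 (SE 0.263) and 0.49 (SE 0.226), and none passed alone (edgeR adjusted p = 0.562, 1 and 0.589). With no low-count filter all 3 passed (edgeR adjusted p = 0.0104, 0.000501 and 0.00948). The differences were then 0.48, 0.70 and 0.49 as before, and the SE was smaller, at 0.116, 0.142 and 0.122. The average of the 3 contrasts in the main fit was 0.56 (SE 0.138, 95% interval 0.27 to 0.84, edgeR adjusted p = 0.0369), with 12 of 12 carriers above the mean of their background. The mean of the 5xFAD tofacitinib mice, 33.9 CPM, includes 5xFAD tofacitinib 2, at 12.9 CPM, and no tally was made without it. The median of these mice was 38.0 CPM, above the lowest 5xFAD-Dp16 tofacitinib carrier at 36.4 CPM. The tally of 12 thus leaned on 5xFAD tofacitinib 2. The last contrast leaned on that library, without which it was 0.25 and the average 0.46. The call was lost with the length trend removed (adjusted p = 0.0649), and it was kept in 19 of the 34 fits that left out 1 library (highest adjusted p 0.0961). In the sham mice that chose Cort, Vip overlapped between wild-type and Dp16, at 28.6 to 53.1 and 39.8 to 52.6 CPM.

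In the average edgeR called 215 of the 17632 genes, DESeq2 339 and limma-voom 1179. Slc32a1 was the member called lower by edgeR and DESeq2, and limma-voom also called Gad1 lower. Among sham mice it had 133, 141, 131 and 130 CPM in 5xFAD and 120, 106 and 102 in 5xFAD-Dp16, without overlap. Under tofacitinib it had 139, 103, 112, 121 and 115 CPM in wild-type and 107, 118, 102, 100.1 and 108 in Dp16, with overlap. On the 5xFAD background under tofacitinib it had 125, 134, 129, 119 and 112 CPM without and 90.3, 127, 84.1 and 123 with the duplication, also with overlap.

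The average log2 difference of Slc32a1 was -0.24 (SE 0.0626, 95% interval -0.37 to -0.11, edgeR adjusted p = 0.0484), and 11 of 12 carriers were below the mean of their background. The call sat at the threshold: it was kept in 6 of the 34 fits that left out 1 library, whose adjusted p ran from 0.0129 to 0.141, while the difference stayed between -0.28 and -0.20. It was -0.23 without 5xFAD tofacitinib 2 (edgeR adjusted p = 0.0514). Gad1 had an average of -0.17 (SE 0.0556, edgeR adjusted p = 0.145) with 11 of 12 carriers below, and Gad2 had -0.16 (SE 0.0753, adjusted p = 0.427) with 9 of 12 below. The means behind these tallies include 5xFAD tofacitinib 2. It was the highest of its group for Slc32a1 (134 CPM) and Gad2 (162 CPM) and the lowest for Gad1 (218 CPM). In 5xFAD-Dp16 sham mice Gad1 and Gad2 were, like Slc32a1, below all 5xFAD sham mice, at 224 to 236 against 236 to 280 CPM for Gad1 and 122 to 131 against 145 to 160 for Gad2. Over the 10 genes 2 were without overlap higher and 3 lower in that contrast, where 5.32% and 4.63% of all genes were. Gad1 was called in the average by limma-voom (-0.17, adjusted p = 0.0127) and by edgeR without 5xFAD tofacitinib 2 (-0.20, adjusted p = 0.0409).

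Striatal neurons, which lie beneath the cortex, also make GABA. The 12 striatal markers, among them the dopamine receptors Drd1 and Drd2, summed to 411 to 2102 CPM in carriers (median 867) and to 579 to 2913 in non-carriers (median 1494), and none was at 0 in any library. Their median log2 difference was -1.19 for 5xFAD-Dp16 against 5xFAD under sham, -0.68 for the same under tofacitinib and -0.51 in the average. In the average 0 of the 12 were called by edgeR, DESeq2 or limma-voom. An unadjusted p under 0.05 was found for 2 by edgeR, 3 by DESeq2 and 8 by limma-voom. By edgeR 11.2% of all genes had such a p, and that share was not computed for the other tools. At an adjusted p under 0.05 limma-voom called 1179 of the 17632 genes, against 215 by edgeR and 339 by DESeq2. In Dp16 against wild-type under tofacitinib all 12 striatal markers were above 0, with a median of 0.28, and there Slc32a1 was -0.16 and Gad1 -0.15. The part of striatal RNA in the lower Slc32a1 was not tested. Cort and Vip had log2 differences above 0 in all 3 contrasts. The striatal peptides Tac1 and Penk are also on the list of interneuron markers.

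**Figure D3:**
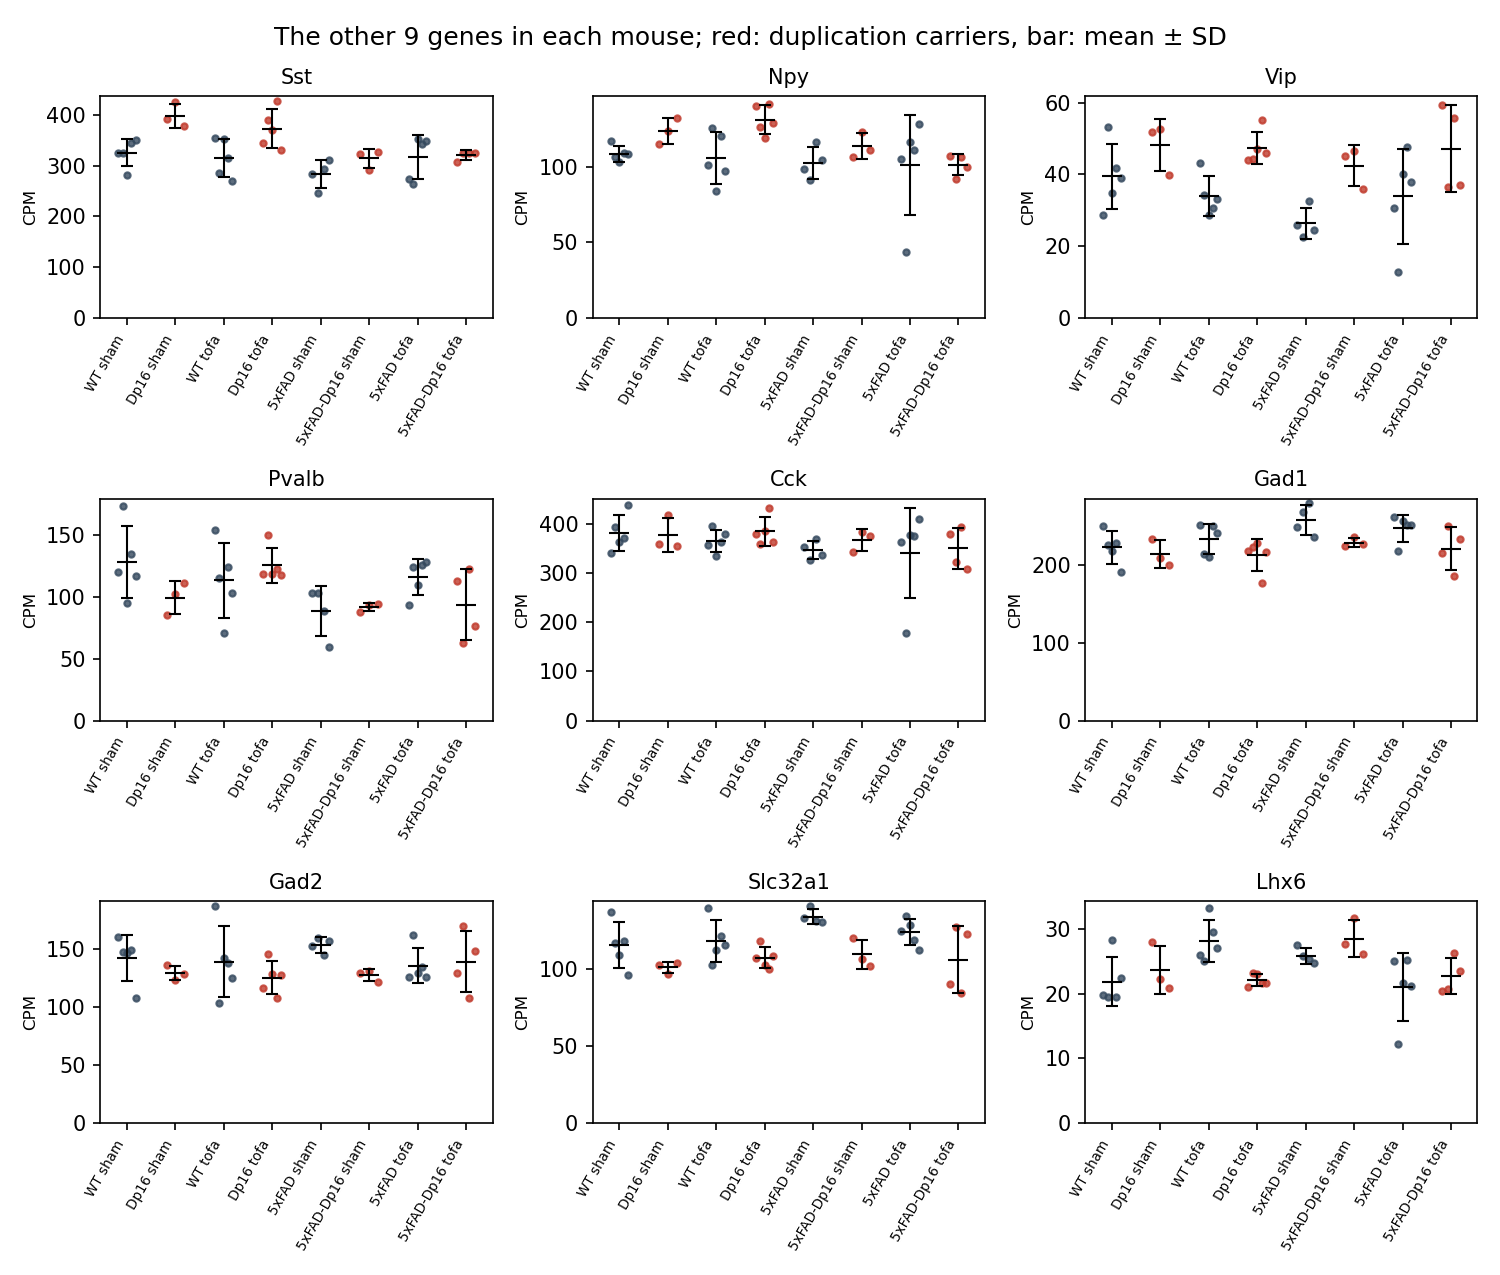
The other 9 genes in each mouse, in CPM on linear axes that start at 0, by genotype and treatment, with duplication carriers in red and bars for the mean and SD of each group. Vip does not overlap between sham-treated 5xFAD-Dp16 (35.9 to 46.5 CPM) and 5xFAD (22.5 to 32.6), and 5xFAD tofacitinib 2 lies far below its group for Npy and Cck.

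Sst, the close relative of Cort, did not pass. Under tofacitinib it had 354, 285, 352, 314 and 270 CPM in wild-type and 345, 390, 370, 427 and 331 in Dp16, with overlap. Its average log2 difference over the 3 contrasts was 0.15 (SE 0.0598, 95% interval 0.03 to 0.27, edgeR adjusted p = 0.3), with 11 of 12 carriers above the mean of their background. Npy had 0.18 (SE 0.0978, adjusted p = 0.515) and 10 of 12 carriers above. Without 5xFAD tofacitinib 2, the lowest of its group for Sst, Npy and Cck, their averages were 0.13, 0.0974 and 0.0184. In 5xFAD-Dp16 against 5xFAD under tofacitinib they were then -0.03, -0.18 and -0.12, against 0.03, 0.03 and 0.06 with that library. The means behind the tallies of carriers include it, and no tally was made without it. The 5xFAD-Dp16 tofacitinib mice reached at most 325 CPM of Sst and 107 CPM of Npy. These lay below the 5xFAD tofacitinib medians of 343 and 111 CPM, so the tallies of Sst and Npy leaned on 5xFAD tofacitinib 2. In the average over all libraries Cck had 0.09 (SE 0.0812, adjusted p = 0.75) and Pvalb -0.06 (SE 0.115, adjusted p = 0.901). Lhx6 had -0.01 (SE 0.0854, adjusted p = 0.986), or -0.07 without 5xFAD tofacitinib 2. Lhx6 was lower without overlap in Dp16 than in wild-type under tofacitinib, at 21.1 to 23.2 against 25.1 to 33.2 CPM. Its log2 difference of -0.33 (SE 0.134) did not pass (edgeR adjusted p = 0.5). On the 5xFAD background it was above 0, but -0.02 under tofacitinib without 5xFAD tofacitinib 2. In Dp16 against wild-type under tofacitinib 2 of the 10 genes were without overlap higher and 1 lower, against 0.771% and 0.573% of all genes.

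Set against Sst within the same library, Cort still separated the groups that did not enter the choice. Dp16 tofacitinib mice had 3.34 to 5.01 Cort reads per 100 Sst reads and wild-type tofacitinib mice 2.30 to 2.67. For 5xFAD-Dp16 the ratio was 3.97 to 5.09 under sham and 2.98 to 4.04 under tofacitinib, and for 5xFAD it was 1.90 to 3.67 and 1.40 to 2.94. In each of these contrasts no carrier was as low as any non-carrier. The sham mice that chose Cort overlapped, with 3.17 to 5.60 in Dp16 and 1.85 to 3.56 in wild-type. Ratios to the other genes of the set gave mixed results in the contrasts that did not enter the choice. Those to Cck and Gad1 did not overlap in any of them, and those to Vip overlapped in each. Per 100 Vip reads there were 24.1 to 39.2 Cort reads in Dp16 and 18.8 to 28.4 in wild-type under tofacitinib. Ratios to Npy, Pvalb, Gad2, Slc32a1 and Lhx6 overlapped in some of these contrasts and not in others.

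**Figure D4:**
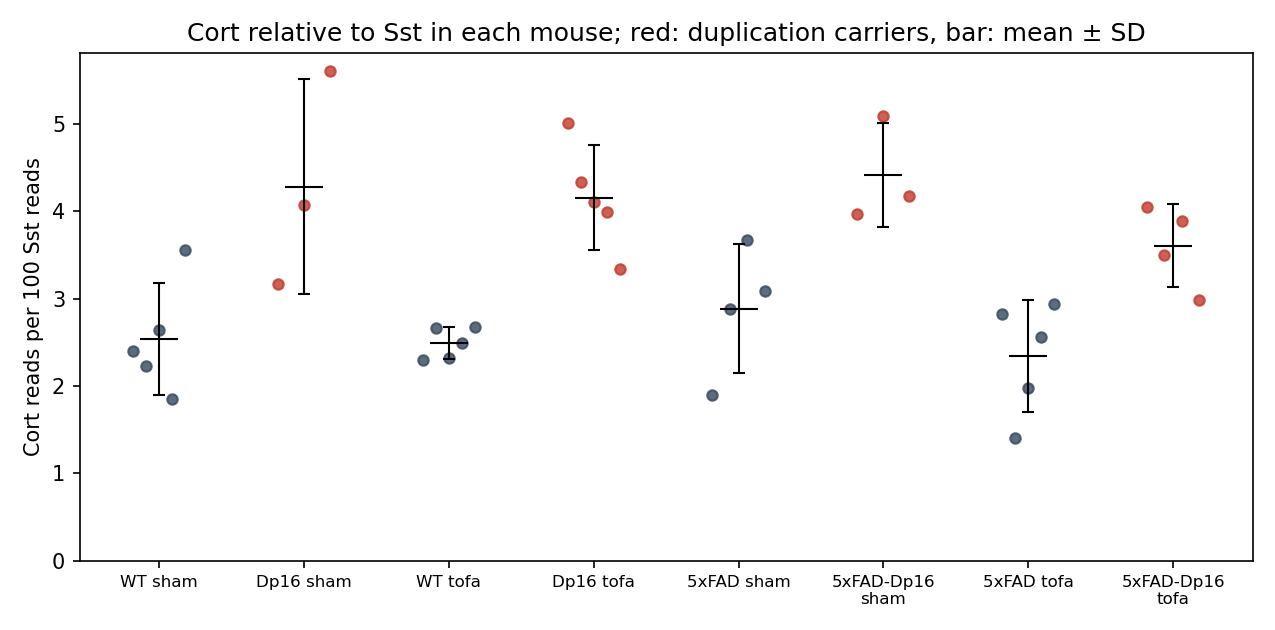
Cort reads per 100 Sst reads in each mouse, by genotype and treatment, with duplication carriers in red and bars for the mean and SD of each group. Carriers and non-carriers do not overlap under tofacitinib or on the 5xFAD background, and they overlap among the sham mice without 5xFAD.

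The libraries differed in how reads spread over short and long genes. Across the 17632 genes the Spearman rho of log2 difference and gene length was -0.31 for Dp16 against wild-type under tofacitinib, -0.15 and 0.14 for 5xFAD-Dp16 against 5xFAD under sham and tofacitinib, and -0.15 in their average. It is a description across genes, which are not independent replicates. Gene length here and elsewhere is the length behind the authors' RPKM values, not the span between a gene's coordinates, in which Vip exceeds Slc32a1. By that length the 2 genes called higher are shorter than the 1 called lower: Cort is 677 bases and Vip 1530, against 2797 for Slc32a1. Sst, at 721 bases, is close to Cort in length. With the length trend removed Cort had an average of 0.71 and kept its call, Slc32a1 had -0.23 and kept its call, and Vip had 0.51 and lost its call (edgeR adjusted p = 0.0649). Sst had 0.04, Npy 0.03 and Cck -0.00608 under that setting. The part of gene length in the differences of the 10 genes was otherwise not tested.

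**Figure D5:**
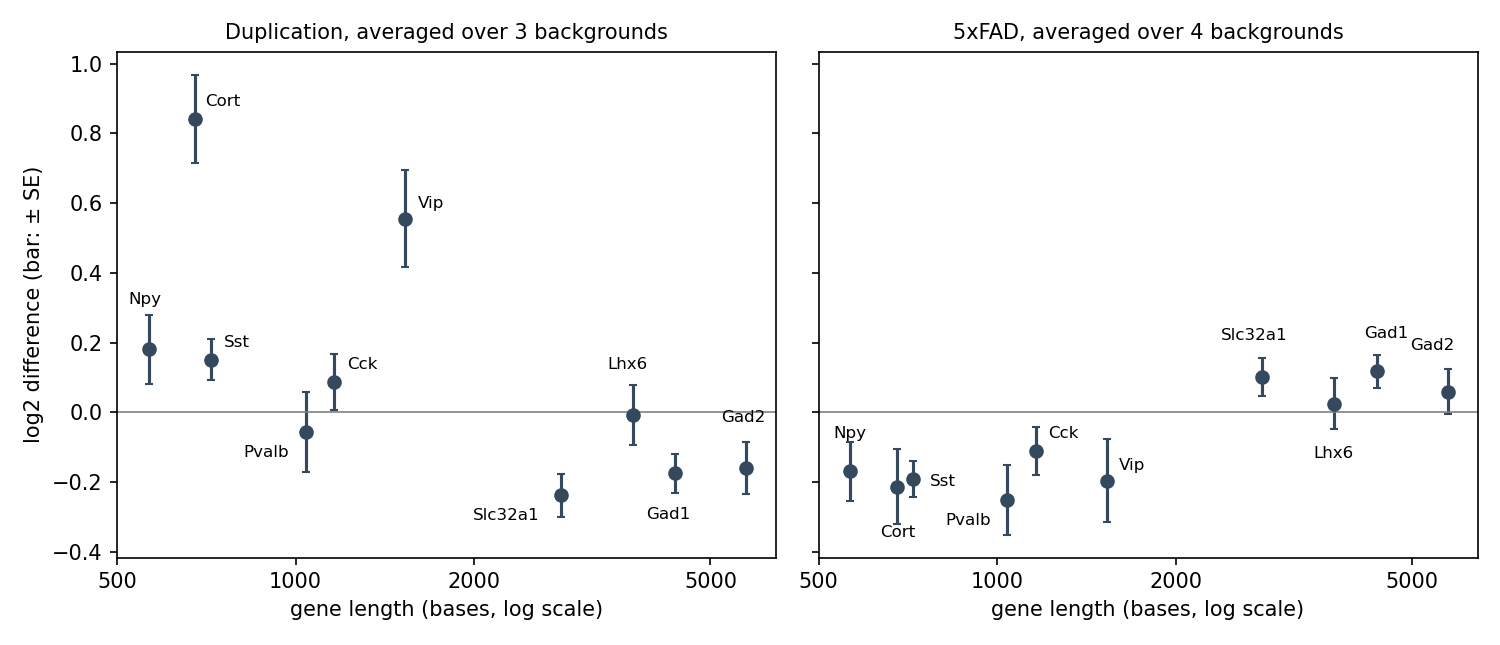
Log2 difference of each of the 10 genes against the length behind its RPKM values, in bases (log scale), for the duplication averaged over 3 backgrounds and for 5xFAD averaged over 4, with bars for the SE. In the 5xFAD panel the 6 genes of 566 to 1530 bases lie below 0 and the 4 of 2797 to 5744 bases above it, while Cort and Vip stand above the short genes in the duplication panel.

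Other interneuron genes were read from lists of markers and pathways. Of 27 further peptides and markers of inhibitory neurons 2 were called higher by edgeR in the duplication average and 0 lower, with 16 above 0. Over all genes 0.732% were called higher and 0.488% lower. At an unadjusted edgeR p under 0.05 there were 4 of the 27, against 11.2% of all genes. Crh, the corticotropin-releasing hormone, made in part of the Vip and Sst cells, was at 5.48 ± 1.97 CPM (SD, n = 5) in wild-type and 7.92 ± 1.08 (SD, n = 5) in Dp16 under tofacitinib, with overlap. On the 5xFAD background it was at 2.95 to 4.31 CPM without and 5.55 to 7.75 with the duplication under sham, and at 2.71 to 6.00 and 6.11 to 8.66 under tofacitinib, without overlap in either. Its average log2 difference was 0.64 (SE 0.129, edgeR adjusted p = 0.00402). Crhbp, which binds that hormone and is made by Sst cells, had 0.32 (SE 0.0804, adjusted p = 0.0372). Both were above the mean of their background in 12 of 12 carriers. Crhbp kept its call in 19 of the 34 fits that left out 1 library, and Crh in all 34. Without 5xFAD tofacitinib 2 Crhbp had 0.27 (edgeR adjusted p = 0.0505), and with the length trend removed 0.29 (adjusted p = 0.0969).

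Genes upstream and downstream of the peptides gave few calls. Of 12 tested peptide receptors 0 were called by edgeR in the duplication average, with 5 above 0, 7 below, a median of -0.02 and 2 at an unadjusted p under 0.05. By edgeR 1.22% of all genes were called there and 11.2% had an unadjusted p under 0.05. The somatostatin receptors, which also bind cortistatin, had log2 differences of -0.02 for Sstr1, -0.32 for Sstr2 (SE 0.109, edgeR adjusted p = 0.189), -0.16 for Sstr3, 0.07 for Sstr4 and -0.79 for Sstr5 (SE 0.575). They are named as a family, after their values were seen. DESeq2 called none of the receptors and limma-voom called Sstr2, which edgeR also called without 5xFAD tofacitinib 2 (-0.40, adjusted p = 0.00723). Of 17 interneuron transcription factors, 15 GABA receptor genes, 8 genes of GABA transport and turnover and 11 of peptide processing, 0 were called by edgeR or DESeq2. Their median log2 differences were -0.04, -0.02, -0.05 and -0.04, and 2, 0, 0 and 2 of them had an unadjusted edgeR p under 0.05. limma-voom called 1 gene of these lists, Dlx5, and 1179 of all 17632 genes. Of 13 activity-regulated genes such as Fos and Npas4, 0 were called by edgeR or DESeq2, 0 had an unadjusted edgeR p under 0.05 and 11 were below 0, with a median of -0.19. limma-voom called 1, Egr1.

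Markers of other cells and regions gave 2 calls in the duplication average by edgeR, where 1.22% of all genes were called. Of the excitatory and pan-neuronal lists 0 of 14 and 0 of 8 genes were called by edgeR or DESeq2, with medians of 0.00349 and -0.03 and 2 and 0 genes at an unadjusted edgeR p under 0.05. limma-voom, which called 1179 of all 17632 genes in the average, called 1 of them, Foxp2. The median was -0.26 for 8 thalamic, -1.14 for 9 hypothalamic and amygdala, -0.04 for 12 hippocampal, 0.01 for 6 astrocyte, -0.12 for 6 microglial and -0.02 for 4 endothelial markers, beside 0.000451 for all genes. Without 5xFAD tofacitinib 2 it was -0.11 for the thalamic and -0.24 for the hypothalamic and amygdala markers, -0.09 for the excitatory and 0.04 for the hippocampal. In the average, Cnp, a myelin enzyme, was the 1 gene of 6 oligodendrocyte markers called by edgeR (-0.29, SE 0.0758, edgeR adjusted p = 0.0458). Mag, a myelin adhesion protein, was called by edgeR in 5xFAD-Dp16 against 5xFAD under tofacitinib (-0.64, SE 0.133, adjusted p = 0.0186), a contrast that holds 5xFAD tofacitinib 2 with its 13901 CPM of summed oligodendrocyte markers against 5474 to 9677 in the 32 other libraries. Hdc, which makes histamine, was the 1 hypothalamic marker called (-0.96, SE 0.244, adjusted p = 0.0374). None of these 3 calls held without 5xFAD tofacitinib 2, where Cnp had -0.22 (edgeR adjusted p = 0.0521), Mag -0.44 (adjusted p = 0.065) and Hdc -0.76 (adjusted p = 0.0822). In the average DESeq2 and limma-voom called Mag and Cnp, and limma-voom also called P2ry12 and Tmem119 of the microglial and Dsp of the hippocampal markers. The hypothalamic markers Avp, Oxt, Pmch, Hcrt, Otp and Gal were at 0 in some libraries. The summed hypothalamic and amygdala markers were 12.6 to 42.2 CPM in carriers and 9.13 to 205 in non-carriers, and their part in the results was not tested.

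None of the neighbours of Cort was called. Cenps, a centromere protein gene on the same strand, ends 357 bases upstream of Cort and had 0.10 (SE 0.161, edgeR adjusted p = 0.879) in the duplication average. Dffa, on the other side at 4386 bases, had -0.12 (SE 0.0624, adjusted p = 0.507). Of the 6 neighbours tested 0 were called by edgeR in any of the 3 contrasts or their average. In the average 0 had an unadjusted p under 0.05 by edgeR and 0 were called by DESeq2 or limma-voom.

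Of the 5 genes whose levels followed Cort most closely over the 34 libraries, 3 lay in the duplicated segment. Among 14474 genes whose mean reached 1 CPM, the highest Spearman rho to Cort was that of Lztr1 (0.79), on chromosome 16 from 17508688 to 17526333, outside the segment. Selenov followed with 0.778, and then Rcan1 (0.77), Dnajc28 (0.764) and Ifnar2 (0.759), all 3 in the segment. The lowest were Gm49980 (-0.716), Ednrb (-0.701) and Sall2 (-0.69). Of the other 9 genes described here, Npy (0.592), Sst (0.581) and Vip (0.577) ranked 95, 107 and 113, and Slc32a1 (-0.634) ranked 14463 of 14474. These values include the genotype groups and the sham mice that chose Cort, and are a description.

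Within groups, after each library's log2 CPM was set against its group mean, Cort was correlated with other peptides. The 9 relations over 34 mice were tested by permuting libraries within groups (100000 draws, two-sided) and adjusted over the 9. Cck had a Pearson r of 0.681 (permutation p = 0.0033, adjusted 0.0148) and a Spearman rho of 0.492 (p = 0.00677, adjusted 0.018). Npy had an r of 0.655 (permutation p = 0.00273, adjusted 0.0148) and a rho of 0.54 (p = 0.00191, adjusted 0.0172). Sst missed the threshold by r (0.452, permutation p = 0.0287, adjusted 0.0517) and passed by rho (0.433, p = 0.0203, adjusted 0.0366).

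Gad2 and Slc32a1, but not Gad1, passed with the opposite sign. Gad2 had an r of -0.408 (permutation p = 0.00882, adjusted 0.0198) and a rho of -0.493 (p = 0.00553, adjusted 0.018), and Slc32a1 an r of -0.381 (permutation p = 0.00773, adjusted 0.0198) and a rho of -0.437 (p = 0.00802, adjusted 0.018). Vip (r 0.491, rho 0.279), Gad1 (-0.0916 and -0.189), Lhx6 (0.351 and 0.135) and Pvalb (-0.0235 and 0.0478) did not pass by either, with adjusted permutation p from 0.0993 to 0.895 for r and from 0.223 to 0.804 for rho. Without the libraries farthest from the median of Cort, 5xFAD tofacitinib 2 and wild-type sham 5, r was 0.511 for Npy, 0.448 for Cck, 0.308 for Sst, -0.202 for Gad2 and -0.261 for Slc32a1. Without the libraries that stood apart, 5xFAD tofacitinib 2 and wild-type sham 2, the relations to Cck, Npy, Gad2 and Slc32a1 did not pass (r 0.442, 0.356, -0.302 and -0.354, adjusted permutation p = 0.108, 0.108, 0.156 and 0.108). In both exclusions the r of Cck, Npy, Gad2 and Slc32a1 was weaker than with all libraries. The 2 values of a pair share a library and its depth. By the lengths behind the RPKM values, Cort (677 bases), Npy (566), Sst (721) and Cck (1162) are short genes, and Slc32a1 (2797) and Gad2 (5744) are longer. Pvalb, at 1041 bases, and Gad1, at 4365, did not pass. These relations were not run with the length trend removed, and the part of gene length in them was not tested.

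5xFAD was compared with its absence within wild-type and Dp16 mice under each treatment, 4 contrasts that include the sham groups used to choose Cort. In their average 0 of the 10 genes were called by edgeR, where 0.431% of all genes were. At an unadjusted p under 0.05 there were 3 of the 10, against 20.2% of all genes. The peptides lay below 0 and the GABA genes above. Sst had -0.19 (SE 0.0516, edgeR adjusted p = 0.0743), Pvalb -0.25 (SE 0.0997, adjusted p = 0.169), Cort -0.21 (SE 0.108, adjusted p = 0.264), Vip -0.20, Npy -0.17 and Cck -0.11. For Cort, chosen with sham groups that are in this average, the value is a description. Gad1 had 0.12 (SE 0.0475, adjusted p = 0.174), Slc32a1 0.10, Gad2 0.06 and Lhx6 0.02.

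Across 17632 genes the Spearman rho of difference and gene length was 0.40 in that average, and the 10 genes are in the plot of difference against length. With the length trend removed Cort was -0.02, Sst -0.01, Npy 0.03, Cck 0.02, Gad2 -0.00362 and Lhx6 0.01. Vip was -0.10, Pvalb -0.11, Gad1 0.09 and Slc32a1 0.11 under the same setting. The averages without 5xFAD tofacitinib 2 were -0.11 for Npy, -0.06 for Cck and -0.13 for Vip. DESeq2 called 1 of the 10 genes in this average (Sst) and limma-voom 2 (Sst and Gad1). Sst was also called by edgeR without wild-type sham 3 (lowest adjusted p 0.0359), wild-type tofacitinib 5 or 5xFAD tofacitinib 2. Of the other 27 interneuron genes Ndnf, a marker of layer 1 inhibitory neurons, was called (0.49, SE 0.119, edgeR adjusted p = 0.0489), where 0.431% of all genes were. Csf1r, a receptor of microglia, was the 1 of 6 microglial markers called (0.31, SE 0.0698, adjusted p = 0.0379).

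In sham mice Vip was at 22.5 to 32.6 CPM in 5xFAD and 28.6 to 53.1 in wild-type, a log2 difference of -0.59 (SE 0.231, edgeR adjusted p = 0.119). Pvalb was at 88.4 ± 20.5 CPM (SD, n = 4) in 5xFAD and 128 ± 28.9 (SD, n = 5) in wild-type, a difference of -0.52 (SE 0.192, edgeR adjusted p = 0.101). Under tofacitinib the same log2 differences were -0.01 (SE 0.215) and 0.04 (SE 0.179). None passed, and the change between treatments was not tested.

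Tofacitinib changed none of the 10 genes past the threshold. In the average over 4 genotypes 0 were called by edgeR, by DESeq2 and by limma-voom, and 0% of all genes were called by edgeR. At an unadjusted p under 0.05 there were 0 of the 10 and 3.32% of all genes. Cort had -0.15 (SE 0.108, 95% interval -0.37 to 0.07, edgeR adjusted p = 0.939), Pvalb 0.15 (SE 0.0993, interval -0.05 to 0.35) and Lhx6 -0.09 (SE 0.0732, interval -0.24 to 0.05). Sst had 0.01 (SE 0.0514, interval -0.10 to 0.11). In Dp16 mice the log2 difference of Cort under the drug was -0.12 (SE 0.219), in 5xFAD-Dp16 -0.28 (SE 0.231), in 5xFAD -0.12 (SE 0.211) and in wild-type -0.08 (SE 0.200). The Dp16 and wild-type contrasts, and so the average over 4 genotypes, include the sham groups used to choose Cort. For Cort these values are therefore a description.

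Females and males did not differ past the threshold in any of the 10 genes. Over the fit 0 were called by edgeR, DESeq2 or limma-voom, and 0.0624% of all genes were called by edgeR. Unadjusted, a p under 0.05 was found for 0 of the 10 and 5.43% of all genes.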

How the data were processed

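Gene counts were deposited as whole numbers, and the authors' RPKM values were those counts per kilobase and per library total (checked: largest relative difference 8.85e-15). The submitters' processing notes name HISAT2 2.1.0, HTSeq 0.6.1, SAMtools 1.5, FastQC 0.11.5, bcl2fastq and GRCm38, with no role, and per the labels' protocols the kit kept strand. The RPKM values served for levels between genes and for lengths, which are not the spans between gene coordinates. The 10 genes and 19 lists were chosen with earlier results of these data known.

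Counts were tested in R 4.3.3 with edgeR 4.0.16 (TMM, filterByExpr on 8 groups, robust quasi-likelihood fit of all 34 libraries, terms for group and sex), in 18 comparisons with Benjamini-Hochberg adjustment over 17632 genes. DESeq2 1.42.0, limma 3.58.1 and other settings were alternatives. SE is the log2 difference over the square root of F. Log2 CPM used a prior count of 0.5. The fit was tested on simulated data.

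Besides the 10 genes, the text names up to 4 called genes per list, the 5 genes most and the 3 least like Cort, and its neighbours. Promoters are RefSeq's (GRCm38.p6) and matched all 10 genes, and positions are GENCODE M21's. Labels name each sample as a mouse of its group. The series lists 6 5xFAD tofacitinib and 4 5xFAD-Dp16 sham mice, of which 5 and 3 were analysed here. No 2 libraries had more than 2.46% equal counts among genes, so none was merged.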

Additional observations from a re-analysis of the deposited data

Results flagged for a closer look

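Over the 10 genes, 60 groups of 4 or 5 mice were examined for a mouse whose gap to its nearest neighbour was large for the range of its group, and 10 were found. Chance gives about 1 in 20 groups. Wild-type sham 5 had the highest Cort of its group (12.4 CPM) and the lowest Gad2 (108 CPM). 5xFAD tofacitinib 2 was lowest for Npy (43.9 CPM), Cck (179 CPM) and Gad1 (218 CPM) and highest for Gad2 (162 CPM). Dp16 tofacitinib 4 was highest for Vip (55.0 CPM) and lowest for Gad1 (177 CPM). Dp16 tofacitinib 2 was highest for Pvalb (150.0 CPM), and 5xFAD-Dp16 tofacitinib 1 was lowest for Sst (307 CPM), in a group whose other 3 mice were all close to 325 CPM.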

How the results depend on the processing

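Cort in the duplication average kept its direction and its call in all alternatives run. For single contrasts, removing the length trend, an alternative chosen after seeing the data, gave Dp16 against wild-type under tofacitinib 0.86 (adjusted p = 0.135). Without a low-count filter 5xFAD-Dp16 against 5xFAD was called under sham (0.82, adjusted p = 0.0112) and tofacitinib (0.67, adjusted p = 0.0153), and Vip in all 3 contrasts (adjusted p = 0.0104, 0.000501 and 0.00948). The SE was smaller in that setting, at 0.2 and 0.173 for Cort and 0.116, 0.142 and 0.122 for Vip. Leaving out each replicate gave Cort 0.77 to 0.90 in the average, 0.97 to 1.17, 0.67 to 0.97 and 0.49 to 0.79 in these contrasts.

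The 3 genes called in the average became 1 with the replicate block and 1 to 3 when each replicate was left out. Slc32a1 lost its call with TMM without segment genes (0.0513), no sex term (0.0798), the replicate block (0.132), only the groups compared (0.0772) and without both libraries that stood apart (0.0535), and Vip with the block (0.106) and the length trend removed (0.0649). Crhbp lost its call with the block (0.1) and the length trend removed (0.0969). Gad1 was called by limma-voom and without both libraries that stood apart. In the 5xFAD average DESeq2 called 1 gene, limma-voom 2 and no filter 2, and leaving out a replicate gave 0 to 1. The causes were not tested.

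Differences near 0 changed sign: in the duplication average Cck (-0.00215 with limma-voom, -0.00608 with the length trend removed) and Lhx6 (0.0062 with the replicate block, 0.00549 with the length trend removed, -0.068 to 0.0351 leaving out replicates), and in the 5xFAD average, with the length trend removed, Npy (0.0281), Cck (0.022) and Gad2 (-0.00362), and Lhx6 leaving out replicates (-0.00883 to 0.0658). Without both libraries that stood apart the within-group r of Cort was 0.0664 with Pvalb, -0.16 with Lhx6, 0.442 with Cck, 0.356 with Npy, -0.302 with Gad2 and -0.354 with Slc32a1.

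Genes called in the duplication average numbered 215, against 339 with DESeq2, 1179 with limma-voom, 546 unfiltered, 121 with the block and 329 without both libraries. For Dp16 against wild-type under tofacitinib they were 45, against 73, 196 and 146 in the first 3 settings and 13 with only the groups compared. For 5xFAD-Dp16 against 5xFAD they were 18 under sham, against 33, 182, 145, 41 with only the groups compared and 38 with the length trend removed. Under tofacitinib they were 42, against 130, 326, 295, 24 with the block, 0 with only the groups compared and 71 with the length trend removed. Replicate numbers did not pair the mice: deviations of 98 same-numbered pairs correlated at a mean of -0.0404, other pairs at 0.00977, 3 same-numbered pairs exceeded 0.1, and 1 of 34 libraries correlated best with its own number. The averages over 4 backgrounds or genotypes and the sex term had no separate fit of only the groups compared. Cort had the fewest reads of the 10 genes, at 82 to 365 per library, but Vip had the larger SE in the average (0.138 against 0.127). The part of depth in the SE was not tested.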
